A study of Mus musculus with 6 samples.

Results

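The proteins of the cytosolic ribosome, the particle that translates nearly all cellular mRNA, are encoded by the genes described here. They were taken by symbol alone: protein-coding rows of the deposited table whose symbol is Rpl (large subunit) or Rps (small subunit) followed by a digit, and Rplp0, Rplp1, Rplp2 and Rpsa. The Rps6k kinases, Rps19bp1 and symbols with -ps, which marks pseudogene copies, were left out. This gave 89 genes of 41079 listed, of which 55 belong to the large and 34 to the small subunit. The rule uses no measured value, though it was set with earlier results of these data known. The symbol rule also takes in a few retrogenes and paralogs, such as Rps27rt and Rpl7l1, and it misses ribosomal proteins with other names, such as Fau and Rack1.

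The cells were D10, a cloned mouse helper T cell line that the labels call CD4+ and trace to lymph node, and their poly(A)+ RNA was sequenced. Cold-acclimated cells were kept at 26°C for 24 h (3 replicates), and non-acclimated cells at 37°C for 24 h (3 replicates). All 6 libraries are labelled as D10, 1 clone, and whether they hold 1 clone was not tested. Some of the T cell markers given below differed between replicates. Per the labels the cells were grown in RPMI medium with serum and antibiotics, whereas the study's methods name DMEM for D10 cells. RNA extraction had old and new batches, and the labels do not tie them to libraries.

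Ribosomal proteins assemble with ribosomal RNA in the nucleolus, and copies that find no partner are degraded. Their mRNAs are among the most abundant of a growing cell. Many of them begin with an unbroken run of pyrimidines at the 5′ end (the TOP motif), through which mTOR, Larp1 and the 4E-BP proteins control their translation. T cells make many new ribosomes when they are activated.

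The unit of the table is TPM, a read count divided by gene length and scaled so that every library has the same total. A TPM is therefore a share of the library. Its comparison between genes depends on the lengths used, which for Rps15a were 5136 exonic bases for a coding length of 390. The read counts behind it were recovered from the steps of the values, and the libraries held 16899628 to 31290854 reads on genes. Between 918512 and 1557291 of these reads fell on the 89 genes. Of the T cell markers, Cd3e, Cd3g, Cd3d, Cd2, Lck, Gata3 and Trac were present in all 6 libraries. Trac, the constant region of the T cell receptor alpha chain, had 15 and 12.8 TPM in the libraries of replicate 2 against 128 to 207 TPM in the other 4, and Cd3d 64.3 and 78.6 TPM against 240 to 332 TPM. Cd4 had 310 and 328 TPM in the libraries of replicate 3 but between 0.035 and 1.3 TPM in those of replicates 1 and 2, against the label, and Cd5 was at 0.045 TPM or below. All 6 B cell markers stayed below 1 TPM in every library, and of the macrophage markers Csf1r, Adgre1, Cd14 and Itgam stayed below 0.1 TPM, whereas Cd68 had 1.07 to 6.36 TPM and Lyz2 0 to 14.8 TPM, both highest in replicate 3. Of the erythroid markers, Hba-a1 had 60.8 to 485 TPM, again highest in replicate 3, whereas Hbb-bs was at 0 and Klf1 and Alas2 at 1.08 TPM or below. The part of these markers in the results was not tested. Replicates 2 and 3 thus stood apart in both conditions, and the main counts and medians are also given without each of them.

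The share of ribosomal protein transcripts in the library was higher after cold acclimation in each replicate, by an amount that differed between replicates. The 89 genes held 16.9, 12.7 and 12.6% of TPM in non-acclimated replicates 1, 2 and 3 (mean 14.1 ± 2.4, SD, n = 3). They held 20.6, 20.3 and 13.3% in cold-acclimated replicates 1, 2 and 3 (mean 18.1 ± 4.1, SD, n = 3). The ratio of 26°C to 37°C was 1.22, 1.59 and 1.06 in the 3 replicates. The cold-acclimated library of replicate 3 lay below the non-acclimated library of replicate 1, so the conditions overlapped. Each subunit had ratios above 1 in every replicate, of 1.22, 1.56 and 1.03 for the large and 1.22, 1.64 and 1.09 for the small subunit. In RNA from whole cultures, fewer cells of one kind and less RNA per cell cannot be told apart. No test was made of this sum.

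**Figure D1:**
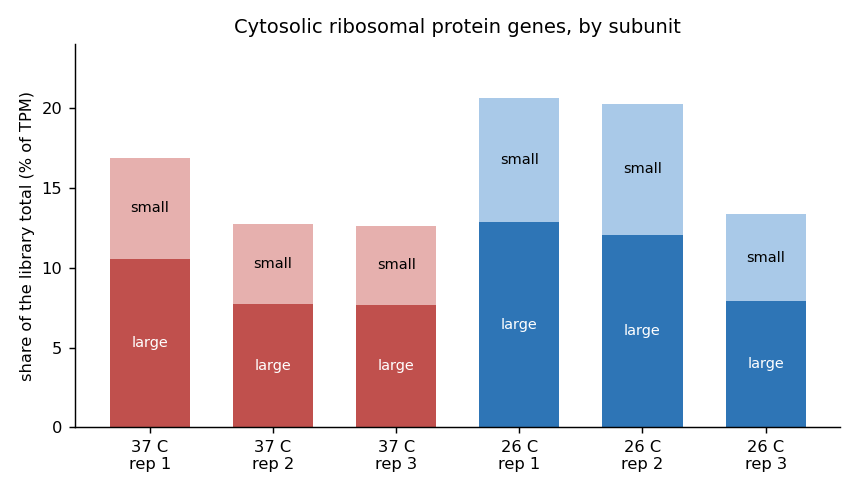
Share of the library total (percent of TPM, vertical axis from 0) held by the large subunit (dark) and small subunit (light) ribosomal protein genes in each of the 6 libraries, with non-acclimated libraries in red and cold-acclimated libraries in blue. The cold-acclimated libraries of replicates 1 and 2 stand highest, at 20.6 and 20.3%, whereas that of replicate 3, at 13.3%, is close to non-acclimated replicates 2 and 3.

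Of the 89 genes, 86 had a mean of at least 1 TPM over the 6 libraries and were tested. Rpl10l and Rpl39l were listed at 0 in all 6 libraries, and Rpl3l reached 0.373 TPM at most. They are paralogs known mainly from testis (Rpl10l, Rpl39l) and from heart and skeletal muscle (Rpl3l). The tested genes were highly expressed, with a median mean level of 1725 TPM against 20.7 TPM over all 12227 tested genes. Of the 100 genes with the highest mean TPM in these cells, 54 were ribosomal protein genes.

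The genes were compared between conditions with limma on log2(TPM + 1), with adjustment over all 12227 tested genes. No ribosomal protein gene passed an adjusted p of 0.05 in limma, in either direction. Over all tested genes, 3.3% were higher and 17.4% lower at this threshold, and 2.63% and 16% when a change of at least 1 on the log2 scale was asked for as well. At an unadjusted p under 0.05, 1 ribosomal protein gene (Rpl34) was higher and 0 were lower, where all tested genes gave 7.75% and 30%. With limma's voom on the recovered reads the count at the adjusted threshold was also 0, with 11 higher and 0 lower at an unadjusted p under 0.05, where all tested genes gave 9.94% and 26.2%. The estimates were nevertheless mostly above 0. The log2 fold change had a median of 0.33 over the 86 genes, with quartiles at 0.21 and 0.47, and it was above 0 for 78 and below 0 for 8. The median over all tested genes was -0.34. By subunit, the median was 0.31 for the 52 tested large and 0.39 for the 34 small subunit genes.

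The replicates differed in size. The median difference over the 86 genes was 0.26 in replicate 1, 0.70 in replicate 2 and 0.09 in replicate 3, against -0.32, -0.44 and -0.24 over all tested genes. The numbers of ribosomal protein genes that were higher at 26°C were 76, 79 and 52, and the shares of all tested genes that were higher were 35.7, 32.0 and 35.4%. In the 3 replicates alike, 47 were higher, where all tested genes gave 18.2%, and 2 (Rps27rt and Rpl36al) were lower, where all tested genes gave 47.9%; after median of ratios scaling the estimates of these 2 were 0.0058 and 0.29. The conditions did not overlap for 10 of the 86 genes, all of them higher at 26°C, and for 0 that were lower, against 9.69% and 31.4% of all tested genes. Among them were Rpl4, Rpl6, Rpl14, Rpl15, Rpl34, Rplp1, Rps10, Rps19 and Rps25, which are named because their values did not overlap. Without both libraries of replicate 3 the median log2 fold change was 0.49 (-0.37 over all tested genes), and Rpl34 passed both thresholds; 6.85% of all tested genes were higher and 28.5% lower at the adjusted p. Without both libraries of replicate 2, whose difference was the largest, the median was 0.14 (-0.29 over all tested genes), 63 genes were above 0 and 23 below, and 0 had an unadjusted p under 0.05 in limma. In that fit 0 of all 12227 tested genes passed an adjusted p of 0.05 in limma in either direction, and 380 were higher and 1849 lower at an unadjusted p under 0.05.

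**Figure D2:**
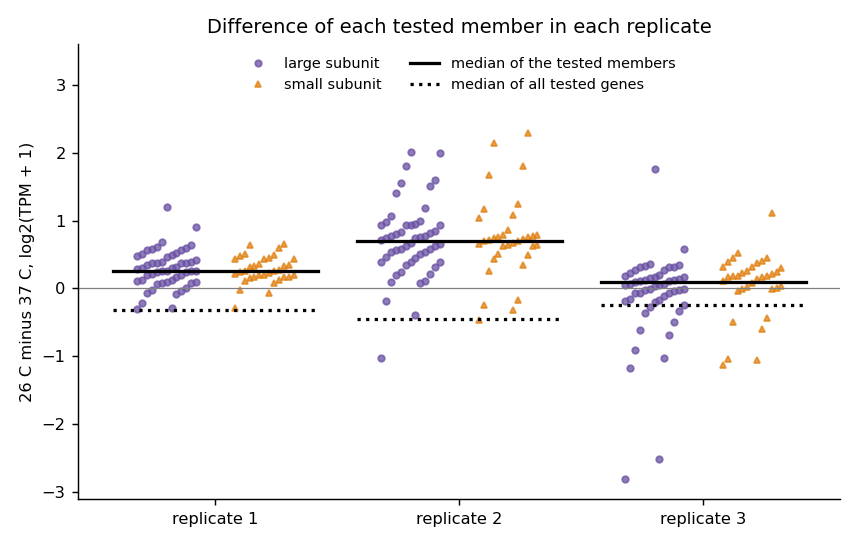
Difference between 26°C and 37°C on the log2(TPM + 1) scale (vertical axis) for each of the 86 tested genes in each replicate, with circles for the large and triangles for the small subunit, and with solid lines at the medians of these genes (0.26, 0.70 and 0.09) and dotted lines at those of all 12227 tested genes (-0.32, -0.44 and -0.24). The solid line lies above the dotted one in each replicate, and replicates 2 and 3 hold single genes with differences beyond 2 in size.

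The replicate number pairs the libraries by a check on all tested genes. Over the ribosomal protein genes the correlation of deviations from the condition means was 0.81, 0.07 and -0.00084 for replicates 1, 2 and 3. It was 0.61 for non-acclimated replicate 2 with cold-acclimated replicate 3. In these genes the pairing was thus seen in replicate 1 only, which limits the differences by replicate and the counts with the replicate term. A limma fit with a replicate term called 5 genes higher and 0 lower at the same adjusted p, where all tested genes gave 6.89% and 29.0%. Among them were Rpl11 (log2 fold change 0.62, limma adjusted p = 0.045), Rpl12 (0.59, 0.043), Rpl27 (0.58, 0.036) and Rps14 (0.59, 0.040). None of the 5 reached a change of 1 on the log2 scale, where 3.75% of all tested genes were higher and 21.9% lower. The scaling of the libraries mattered as well. Median of ratios scaling is the one named in the study's methods, which used it on read counts. Here it was applied to TPM, and it moved the median of all tested genes from -0.34 to 0.02. The median of the ribosomal protein genes moved with it, from 0.33 to 0.73, and all 86 were then above 0. Rpl34 (1.22, limma adjusted p = 0.043) and Rps25 (0.90, limma adjusted p = 0.048) passed and 0 were lower, where 8.33% of all tested genes were higher and 9.59% lower. Of these Rpl34 also passed the threshold of 1 in size, where all tested genes gave 6.56% higher and 8.79% lower. With this scaling and the replicate term together, 37 of the 86 passed as higher, 6 of them by at least 1, and 0 as lower. All tested genes gave 16.4% and 8.88% higher, and 17.2% and 12.6% lower. The count thus ran from 0 to 37 with the fit.

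The 4 highest estimates were those of Rpl34, Rps23rg1, Rpl35a and Rpl36. Rpl34, a large subunit protein whose gene lies on chromosome 3 of GRCm39 (130520476 to 130524047), had 12.7, 9.06 and 18.2 TPM in non-acclimated and 24.6, 28.6 and 19.2 TPM in cold-acclimated replicates 1, 2 and 3. The conditions did not overlap, and the log2 fold change was 0.84 (standard error, SE, 0.31, limma adjusted p = 0.091). Its values rest on 91 to 315 reads per library.

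Rps23rg1 is a retrogene of Rps23 on chromosome 8 (3617998 to 3634776). It had 5.67, 2.33 and 2.72 TPM at 37°C and 9.48, 6.51 and 4.35 TPM at 26°C, a log2 fold change of 0.78 (SE 0.39, limma adjusted p = 0.18), and it was higher in the 3 replicates. With 31 to 133 reads per library it was among the least expressed. Rps23 itself, which forms part of the decoding site, had 3592, 2192 and 2558 TPM at 37°C and 4538, 3982 and 3380 TPM at 26°C, a log2 fold change of 0.53 (SE 0.28, limma adjusted p = 0.21). Both were higher in the 3 replicates.

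Rpl35a, a large subunit protein mutated in some patients with Diamond-Blackfan anemia, had 75.1, 129 and 85.3 TPM at 37°C and 98, 136 and 293 TPM at 26°C (log2 fold change 0.74, SE 0.42, limma adjusted p = 0.24). Most of this estimate came from replicate 3, whose difference was 1.77 against 0.38 and 0.08. Rpl36 showed the opposite order, with 1770, 717 and 745 TPM at 37°C and 2768, 1892 and 730 TPM at 26°C. Its log2 fold change of 0.67 (SE 0.56, limma adjusted p = 0.42) rested on replicates 1 and 2.

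The 4 lowest estimates were those of Rps27rt, Rpl7l1, Rpl7a and Rpl29. Rps27rt, a retrotransposed copy of Rps27 on chromosome 9 (114811434 to 114811807), had 540, 301 and 142 TPM at 37°C and 443, 218 and 105 TPM at 26°C. It was lower in each replicate, yet its spread between replicates exceeded the difference (log2 fold change -0.39, SE 0.62, limma adjusted p = 0.69, and 0.13 with the replicate term). Rpl7l1, a paralog of Rpl7 that takes part in early assembly of the large subunit, had 144, 248 and 203 TPM at 37°C and 218, 190 and 89.5 TPM at 26°C (-0.32, SE 0.38, limma adjusted p = 0.58). It was higher in replicate 1 and lower in the other 2.

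Rpl7a, a large subunit protein, had 1616, 2564 and 1489 TPM at 37°C and 2001, 1255 and 1459 TPM at 26°C (-0.25, SE 0.31, limma adjusted p = 0.60). After median of ratios scaling the estimates of Rps27rt, Rpl7l1, Rpl7a and Rpl29 were 0.0058, 0.077, 0.15 and 0.25, all above 0. For Rpl7a, replicate 2 held both the highest of the 6 values, at 37°C, and the lowest, at 26°C. Its difference there was -1.03 on the log2 scale, against 0.31 and -0.03 in replicates 1 and 3. Rpl29 had 58.3, 16.7 and 61.8 TPM at 37°C and 136, 39.5 and 8.02 TPM at 26°C (-0.13, SE 0.95, limma adjusted p = 0.94). Its difference was 1.21 and 1.19 in replicates 1 and 2 and -2.80 in replicate 3 on the log2 scale.

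**Figure D3:**
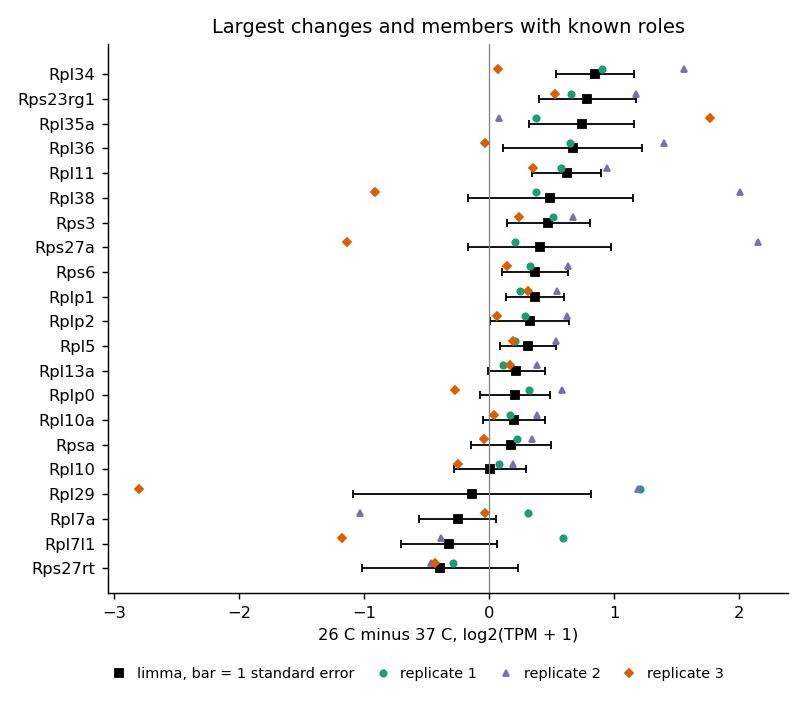
Difference between 26°C and 37°C on the log2(TPM + 1) scale (horizontal axis) for the 4 highest and the 4 lowest estimates and 13 genes with well-known roles. Black squares are limma estimates with 1 standard error, and coloured marks are the single replicates; Rpl34 and Rps27rt keep 1 sign in the 3 replicates (after median of ratios scaling the estimate of Rps27rt is 0.0058), whereas the marks of Rps27a, Rpl38 and Rpl29 lie on both sides of 0.

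The 5′ ends of the genes with the 3 highest and the 3 lowest estimates and the 2 most expressed genes are shown because the pyrimidine run is what marks TOP mRNAs. Each window holds 12 bases before and 18 bases from a transcription start of RefSeq (GRCm38.p6 table), and was placed on GRCm39 by its sequence. Capitals mark the part inside the window of a run of at least 8 bases of C or T that reaches within 5 bases of the start. Where several starts were listed, the start with the longest run is shown.
Rpl34, chr3:130523969-130523998, minus strand: TCCTTTTCCTCTTCCggggacggtgctcag
Rps23rg1, chr8:3617986-3618015, plus strand: ttgcagagagTCTTTCTCTCaccccagata
Rpl35a, chr16:32876840-32876869, plus strand: gggcttgCCTTCCTCTTTCCgccatcttgg
Rps27rt, chr9:114811790-114811819, minus strand: acttatcccttgctttccggcggtgacgac
Rpl7l1, chr17:47093565-47093594, minus strand: aggctgcgcaagcgcagtagctgaagcacc
Rpl7a, chr2:26800807-26800836, plus strand: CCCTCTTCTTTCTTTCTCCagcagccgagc
Rpl35, chr2:38895126-38895155, minus strand: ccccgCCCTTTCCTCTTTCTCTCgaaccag
Rpl12, chr2:32851712-32851741, plus strand: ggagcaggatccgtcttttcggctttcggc
The 3 genes with the highest estimates carry such a run and so do Rpl7a and Rpl35, whereas Rps27rt, Rpl7l1 and Rpl12 do not at these starts. The rule also counts bases before the start, so it does not by itself tell TOP mRNAs from others. In Rpl34 and Rpl7a most of the run lies before the start. Rpl12 has a run of 7 bases, just under the limit of 8. The RefSeq table held 68 of the 89 genes with 80 starts, and 26 starts (32.5%) had a run on the gene's own strand, against 9.72% of all 32851 starts and 9.33% of the 75 starts of mitochondrial ribosomal protein genes. Among tested genes, the median log2 fold change was 0.35 for the 26 with a run by this rule and 0.33 for the 39 without.

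Among genes with well-known roles, those of the stalk that recruits elongation factors were mostly higher at 26°C. Rplp1 had 3517, 2994 and 3067 TPM at 37°C and 4173, 4353 and 3799 TPM at 26°C, without overlap (log2 fold change 0.37, SE 0.23, limma adjusted p = 0.29). Rplp2 was also higher in the 3 replicates (0.32, SE 0.32), whereas Rplp0 was higher in replicates 1 and 2 and lower in replicate 3 (0.21, SE 0.28).

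Rpl5 and Rpl11 bind 5S ribosomal RNA and can bind Mdm2, the ubiquitin ligase of p53. Rpl11 had 1255, 804 and 959 TPM at 37°C and 1867, 1546 and 1225 TPM at 26°C (0.62, SE 0.28, limma adjusted p = 0.14), and Rpl5 had 1349, 1164 and 1163 TPM and then 1560, 1690 and 1329 TPM (0.31, SE 0.22, limma adjusted p = 0.35). Both were higher in each replicate. The cold-acclimated values of Rpl11 overlapped the non-acclimated value of replicate 1 only through replicate 3.

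Rps6, the substrate of S6 kinase, had 2565, 1713 and 2134 TPM at 37°C and 3217, 2655 and 2351 TPM at 26°C (0.37, SE 0.26, limma adjusted p = 0.35). Rps3, which lies where mRNA enters the small subunit, had 1657, 2089 and 1357 TPM and then 2361, 3330 and 1602 TPM (0.47, SE 0.33, limma adjusted p = 0.34). Rps6 and Rps3 were both higher in each replicate, with overlapping conditions. Rpl13a, known for a second role in silencing inflammatory mRNAs, and Rpl10a had estimates of 0.22 and 0.20, also with 1 sign in the 3 replicates.

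Rpl10, which is added late and completes the large subunit, had an estimate close to 0 (0.01, SE 0.29, limma adjusted p = 0.98). Rpsa, a small subunit protein also known as the laminin receptor, had 957, 546 and 657 TPM at 37°C and 1115, 693 and 638 TPM at 26°C (0.17, SE 0.32, limma adjusted p = 0.74). Rps27a is made as a fusion with ubiquitin. It had 1434, 527 and 1405 TPM at 37°C and 1652, 2340 and 640 TPM at 26°C, with differences of 2.15 in replicate 2 and -1.13 in replicate 3 on the log2 scale (0.41, SE 0.57, limma adjusted p = 0.65). Rpl38, needed for the translation of Hox mRNAs in the embryo, followed the same course, with 1112, 286 and 636 TPM at 37°C and 1446, 1149 and 338 TPM at 26°C (0.49, SE 0.66, limma adjusted p = 0.63).

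By mean TPM, the most expressed genes were Rpl35, Rpl12 and Rpl23a, with mean levels of 5221, 5020 and 5012 TPM. Rpl35 and Rpl23a line the exit of the peptide tunnel, and Rpl12 sits at the base of the stalk. Rpl12 had 4423, 4637 and 2702 TPM at 37°C and 7074, 7886 and 3401 TPM at 26°C, and was higher in each replicate. Rpl23a had 5446, 3518 and 4122 TPM and then 5690, 7028 and 4269 TPM, and Rpl35 had 6797, 4046 and 3747 TPM and then 7227, 6258 and 3250 TPM. The 3 means differed by less than the spread between libraries. At the other end, Rpl32l had 1.26 to 4.43 TPM at 37°C and 1.16 to 6.83 TPM at 26°C, on 7 to 35 reads per library, and Rpl21 had 3.74 to 8.92 TPM and 4.64 to 11.7 TPM.

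The shortest ribosomal protein genes moved together by library. A coding sequence under 300 bases was found in 10 tested genes (Rpl37, Rpl37a, Rpl38, Rpl39, Rpl41, Rps21, Rps27, Rps27rt, Rps28 and Rps29), a limit set after the values were seen. Their geometric mean was 1602, 471 and 868 TPM in non-acclimated and 1741, 1207 and 570 TPM in cold-acclimated replicates 1, 2 and 3. Over the 73 longer genes it was 1163, 910 and 943 TPM, and then 1442, 1406 and 981 TPM. Non-acclimated replicate 2 had the lowest value of the 6 libraries for 9 of the 10 short genes, and for 37 of all 86 tested genes. Accordingly, the median difference of the short genes was 1.55 in replicate 2, where 9 of 10 were higher, and -0.54 in replicate 3, where 0 of 10 were.

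Rps27, whose protein carries a zinc finger, is an example, with 1468, 193 and 451 TPM at 37°C and 1680, 950 and 298 TPM at 26°C. Rps28 had 1421, 313 and 1051 TPM at 37°C and 1604, 1000 and 512 TPM at 26°C. In replicate 1 the values of both at 26°C and 37°C differed by less than 0.2 on the log2 scale. Spearman's correlation of coding length with the difference was 0.20, -0.45 and 0.24 over the 83 tested genes with a coding sequence, which share libraries and are not independent. Over 10145 other protein-coding genes it was -0.15, -0.10 and -0.16, and the 81 others under 300 bases with a mean of at least 100 TPM had medians of 0.10, 0.10 and 0.11. Without both libraries that were low in the short genes (non-acclimated replicate 2 and cold-acclimated replicate 3), 0 of the 86 genes passed an adjusted p of 0.05 in limma, 3 were higher and 0 lower at an unadjusted p under 0.05 (6.75% and 28.1% of all tested genes), and the median was 0.44 (-0.36 over all tested genes).

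**Figure D4:**
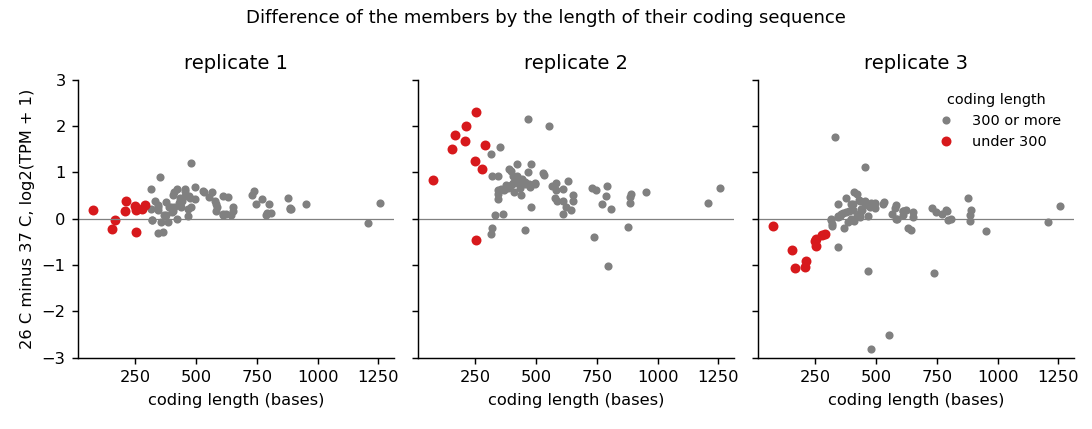
Difference between 26°C and 37°C on the log2(TPM + 1) scale (vertical axis) against coding length in bases (horizontal axis) for the 83 tested genes with a coding sequence, 1 panel per replicate, with genes under 300 bases in red. The red points lie near 0 in replicate 1, have a median of 1.55 in replicate 2 and lie below 0 in replicate 3 with a median of -0.54.

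For 4 genes a close paralog was expressed as well, and its share of the pair differed between conditions by less than the spread between replicates. By TPM, which divides by gene length, Rpl22l1 stood above Rpl22, a protein needed for the development of alphabeta T cells. By recovered reads the order was the reverse. Rpl22l1 had 1678 to 2932 reads per library on 553 exonic bases, and Rpl22 had 4323 to 7467 on 2362 bases. Rpl22l1 had 443, 441 and 441 TPM at 37°C and 362, 471 and 479 TPM at 26°C, and Rpl22 had 315, 223 and 217 TPM and then 300, 351 and 208 TPM. The share of Rpl22l1 was 64.0% ± 4.8 at 37°C and 60.6% ± 8.1 at 26°C (SD, n = 3 each, exact two-sided permutation p = 0.6).

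Rpl36al held 21.9% ± 7.2 and 17.9% ± 5.7 of its pair with Rpl36a (SD, n = 3 each, exact permutation p = 0.7). Rpl7l1 held 5.37% ± 1.65 and 4.05% ± 1.30 of its pair with Rpl7 (SD, n = 3 each, exact permutation p = 0.4). Rps27l, a p53 target, held 5.0, 36.5 and 22.1% at 37°C and 5.07, 8.53 and 30.1% at 26°C of its pair with Rps27 (exact permutation p = 0.7). Its own level stayed between 77.2 and 128 TPM, so the wide range of the share followed Rps27. With 3 libraries against 3 the smallest two-sided p is 0.1. Of the other pairs, Rpl3l held at most 0.031% of its pair with Rpl3, Rpl10l and Rpl39l were listed at 0, and Rps4l, the paralog of Rps4x, is typed as a pseudogene and was listed at 0 in all 6 libraries.

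**Figure D5:**
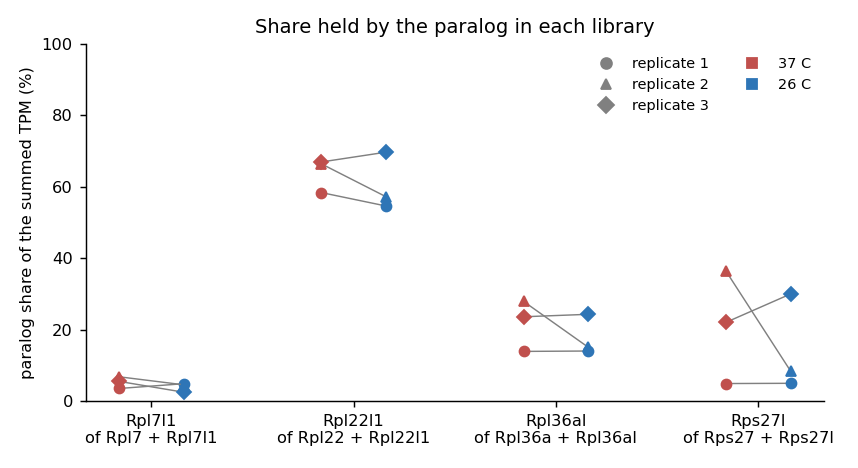
Share of the paralog in the summed TPM of each pair of genes (percent, vertical axis) in non-acclimated (red) and cold-acclimated (blue) libraries, with lines joining libraries of the same replicate. The share of Rpl22l1 stays between 54.7 and 69.7% in all 6 libraries, whereas that of Rps27l ranges from 5.0 to 36.5%.

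Ribosomal protein genes have many processed copies in the genome, and reads that fit several places cannot be assigned with certainty. Whether such reads were counted is not given in the sources used here. In a search of GRCm39 with the coding sequences of 86 genes, 68 had at least 1 other place that matched 90% or more of the coding sequence at 98% identity or more, and 20 had an exact copy. The values of these genes are uncertain to that extent. The mean level had a median of 2148 TPM in the 18 genes with no such copy, 1752 TPM in the 52 with 1 to 4 copies and 992 TPM in the 16 with 5 or more. Rpl21, with 14 copies, Rps2 and Rpl17, with 9 each, Rpl35a, with 8, and Rpl29, with 7, were all under 600 TPM in every library, whereas Rpl7a, with 10, had 1255 to 2564 TPM.

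For Rpl34 most of the signal was listed under a copy. Rpl34-ps1 on chromosome 6 (71101573 to 71101985) had 2006, 1723 and 1537 TPM at 37°C and 2744, 3348 and 1886 TPM at 26°C. Rpl34 and its copy summed to 2019, 1732 and 1555 TPM at 37°C and 2769, 3377 and 1905 TPM at 26°C, a mean difference of 0.57 on the log2 scale, and the conditions overlapped. Rpl30 had 58.7 to 349 TPM and its copy Gm12191 983 to 2223 TPM. Their sum was 1332, 1123 and 1601 TPM at 37°C and 1611, 2336 and 1984 TPM at 26°C, without overlap, and the mean difference on the log2 scale was 0.55 where Rpl30 alone had an estimate of 0.0067. Rps18 had 161 to 351 TPM and summed with Rps18-ps4 to 1153 to 2222 TPM (mean difference 0.37, with overlap), and Rpl17 had 36.4 to 577 TPM and summed with Rpl17-ps10 to 410 to 1346 TPM (0.48, with overlap). The 15 tested genes with no full copy had a median log2 fold change of 0.34, and the 68 with a copy 0.33.

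By the deposited positions, snoRNA genes lie inside 30 of the genes. These 30 had a median log2 fold change of 0.33, and the 56 tested genes without one 0.34. For the 78 mitochondrial ribosomal protein genes, which build a separate ribosome, the median was -0.26. In limma 1 of them was called higher and 4 lower at both thresholds, where all tested genes gave 2.63% and 16%. After median of ratios scaling the median was 0.13, with 3 called higher and 2 lower, where all tested genes gave 6.56% and 8.79%. The median differences of the mitochondrial genes were -0.03, -0.48 and -0.14 in the 3 replicates, and below those of the cytosolic genes in each.

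Of the cytosolic ribosomal proteins with other names, Fau, a fusion with a ubiquitin-like protein, and Rack1, a scaffold on the small subunit, had log2 fold changes of 0.55 and 0.31. Neither passed an adjusted p of 0.05 in limma or voom, or an unadjusted p under 0.05. Of 19 other genes with TOP mRNAs, limma called 1 higher and 0 lower at the same threshold, and voom 2 and 0, with a median of 0.27 and 13 above 0. Over all 12227 tested genes limma called 3.3% higher and 17.4% lower, and voom 523 higher and 1807 lower. At an unadjusted p under 0.05 limma gave 2 higher and 0 lower, against 7.75% and 30% of all tested genes. The TOP mRNA gene that limma called higher was Vim, an intermediate filament protein (log2 fold change 0.98, SE 0.29, limma adjusted p = 0.049). Vim had 1738, 1277 and 2003 TPM at 37°C and 3953, 3426 and 2541 TPM at 26°C. It passed no longer when one of non-acclimated replicates 1, 2 and 3 or cold-acclimated replicates 1 and 2 was left out (limma adjusted p of 0.055 to 0.17). Eif3e, a subunit of the initiation factor that binds the small subunit, was called higher with the replicate term (0.67, limma adjusted p = 0.052 and 0.026 with the term) and after median of ratios scaling (1.07, 0.018), and also with voom. After median of ratios scaling 3 of the 19 passed the adjusted p as higher and 0 as lower, where all tested genes gave 8.33% and 9.59%. These were Eif3e, Vim (1.38, limma adjusted p = 0.031) and Btf3 (0.92, limma adjusted p = 0.038). With the replicate term added to that scaling, 9 were higher and 0 lower, against 16.4% and 17.2% of all tested genes. The elongation factor Eef1a1 had 13820 to 20380 TPM in all 6 libraries and an estimate of 0.10.

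A list of 12 genes around TOP mRNA translation held genes of mTOR complex 1, S6 kinases, 4E-BP proteins and Larp proteins, and Myc. The part of each in TOP mRNA translation was not tested. Of these 12, limma called 3 lower, 2 of them by at least 1 on the log2 scale, and 0 higher. Over all tested genes 17.4% were lower and 3.3% higher. At an unadjusted p under 0.05 there were 4 lower and 1 higher, against 30% and 7.75%. With voom 3 were called lower and 1 higher, against 1807 lower and 523 higher of all 12227 tested genes. Larp4b, an RNA-binding protein of the La family, had 6.38, 6.37 and 5.83 TPM at 37°C and 0.633, 0.375 and 1.13 TPM at 26°C (log2 fold change -2.09, SE 0.29, limma adjusted p = 0.0075). It fell without overlap. Rptor, the subunit of mTOR complex 1 that binds substrates, had 17.8, 25.7 and 26.1 TPM at 37°C and 12.9, 10.6 and 9.60 TPM at 26°C (-1.0, SE 0.26, limma adjusted p = 0.035). Its call was lost when one of the same 5 libraries as for Vim was left out (limma adjusted p of 0.062 to 0.13).

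Eif4ebp2, a repressor of cap-dependent initiation, had 141, 174 and 178 TPM at 37°C and 61.3, 86.2 and 103 TPM at 26°C (-0.99, SE 0.26, limma adjusted p = 0.035), and lost its call without the same libraries (0.071 to 0.12). Mtor, the kinase of that complex, passed as lower with the replicate term (-0.80, limma adjusted p = 0.052 and 0.040 with the term). Larp4, a relative of Larp4b, passed as higher with the replicate term (0.96, limma adjusted p = 0.055 and 0.012 with the term) and after median of ratios scaling (1.36, 0.020). Larp1, the repressor that binds the TOP motif, had an estimate of 0.33 (SE 0.27, limma adjusted p = 0.41). After median of ratios scaling the values were -0.62 for Rptor (limma adjusted p = 0.13) and -0.60 for Eif4ebp2 (0.10). With that scaling Larp4b was lower and Larp4 higher, so the balance of this list depended on the scaling.

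The lists that follow are to be read against all 12227 tested genes. Of these limma called 3.3% higher and 17.4% lower (7.75% and 30% at an unadjusted p under 0.05), and voom 523 higher and 1807 lower. Among 15 escorts and importers of ribosomal proteins, limma called 0 higher and 1 lower (1 and 3 at an unadjusted p under 0.05), and voom also 0 and 1. That was Prmt3, which methylates Rps2, with 51.5, 58.0 and 49.8 TPM at 37°C and 24.7, 28.2 and 30.4 TPM at 26°C (-0.91, SE 0.21, limma adjusted p = 0.025). It lost its call (limma adjusted p of 0.075 to 0.11) on leaving out one of non-acclimated replicates 1 and 2 or cold-acclimated replicates 1 and 2, and after median of ratios scaling (-0.52, 0.10). Among 11 genes for the quality control of ribosomal proteins and stalled ribosomes, limma called 0 higher and 1 lower (1 and 2 at an unadjusted p under 0.05), and voom 1 and 1. This was Ltn1, the ubiquitin ligase of stalled large subunits, with 35.8, 35.3 and 51.2 TPM at 37°C and 12.5, 10.8 and 24.5 TPM at 26°C (-1.37, SE 0.35, limma adjusted p = 0.032). It too lost its call on leaving out one of non-acclimated replicates 1, 2 and 3 or cold-acclimated replicates 1 and 2 (limma adjusted p of 0.073 to 0.11), and after median of ratios scaling (-0.99, 0.066). With the replicate term the escort list had 2 lower, Prmt3 and the importin Ipo9 (-0.78, limma adjusted p = 0.085 and 0.025 with the term), and 0 higher. The quality control list then had 3 lower, Ltn1, the ubiquitin ligase Rnf10 (-0.88, 0.080 and 0.015) and the stress granule protein G3bp1 (-0.76, 0.15 and 0.035), and 1 higher, the ribosome rescue factor Hbs1l (0.69, 0.073 and 0.042). The counts of these lists are to be read against the 6.89% of all tested genes that were higher and the 29.0% that were lower with this term. After median of ratios scaling 2 escorts were called higher, Grwd1 (1.57, limma adjusted p = 0.043) and Ipo5 (0.83, 0.048), and 2 quality control genes, Hbs1l (1.08, 0.021) and Mdm2 (0.80, 0.036), and 0 of either list lower. With that scaling 8.33% of all tested genes were called higher and 9.59% lower. Without that scaling the quality control list had a median of -0.02 and the escort list a median of 0.14.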

How the data were processed

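RNA was sequenced from 3 cold-acclimated and 3 non-acclimated D10 cultures with strand-specific poly(A)+ libraries. Per the labels and the study's methods, the authors aligned paired-end reads to GRCm39 with HISAT2 2.1.0 after Trimmomatic 0.38 and FastQC 0.11.7, counted them per gene with featureCounts 1.6.3, and deposited TPM, one column per library. The annotation release, gene lengths, strand setting and treatment of reads with several matches are details not given in the sources used here. Recovered read counts were whole within 1e-06 for all 21195 genes with a value.

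Testing used limma 3.58.1 in R 4.3.3 with an intensity trend and no replicate term, on log2(TPM + 1) of all genes whose mean was 1 TPM or more, with Benjamini-Hochberg adjustment over 12227 genes. The pseudocount of 1 understates changes of low genes. Adjusted p under 0.05, with or without a log2 fold change of at least 1, were the thresholds. The p-values measure the spread between these 6 libraries. Whether replicate numbers pair the libraries was checked from deviations from the condition means over all tested genes. Their correlation was 0.48, 0.50 and 0.51 for the same number and -0.41 to 0.02 for different numbers. The replicate term was therefore run as well. Over the ribosomal protein genes the correlation was 0.81, 0.07 and -0.00084 for the same number and -0.74 to 0.61 for different numbers. Copies were searched with blastn 2.17.0 (98% identity, at least 100 bases) using GENCODE coding sequences of GRCm39. Python 3.11.15 served for all else (scipy 1.17.1, pandas 2.3.3, numpy 2.4.6; figures, matplotlib 3.10.9). The fits were tested on simulated data.

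The genes and the lists were chosen with earlier results of these data known. Named genes are the 4 largest changes in each direction, the 3 highest and 3 lowest levels, genes not tested, paralog pairs, 13 genes with known roles, and in each list those past the adjusted p, up to 4 in each direction. Others were named after their values were seen, as were those without overlap, those that passed only with another fit, and the copies. Further fits used a pseudocount of 0.1, no filter on low values, median of ratios scaling, quantile normalization, rescaling over genes outside the family, the replicate term, voom on the recovered reads, and each library left out in turn. Leaving out replicate 2 or replicate 3, leaving out both libraries low in short genes, and the replicate term with median of ratios scaling were added after seeing the data. Some genes that were counted are not reported here by name.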

Additional observations from a re-analysis of the deposited data

How the results depend on the processing

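Depth limits Rpl32l, Rps23rg1, Rpl34 and Rpl21, which had between 7 and 315 reads per library. Near-identical copies limit Rps23rg1, Rpl34 and Rpl21 as well, with 3, 3 and 14 full copies, and most of the other genes. For Rpl34 most of the signal was listed under Rpl34-ps1. The count of ribosomal protein genes higher with a log2 fold change of at least 1 was 0, and it was 1 after median of ratios scaling, 1 after quantile normalization, 1 without both libraries of replicate 3 (Rpl34 each time) and 6 with the replicate term and median of ratios scaling together. At the adjusted p alone the counts were 2, 1, 1 and 37, and 5 with the replicate term. Other alternatives gave 0, and no alternative called a gene lower. The replicate term alone changed no other call of a gene named above as a ribosomal protein gene. The median log2 fold change of 0.33 was 0.73 under median of ratios scaling, with or without the replicate term, 0.13 under quantile normalization, 0.14 without both libraries of replicate 2 and 0.23 to 0.56 without single libraries. Its distance from the median of all tested genes, 0.67, fell to 0.10 (0.105) under quantile normalization, where the cause was not tested.

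Estimates of some genes changed sign, among them Rps27, Rpl38 and Rps27a, whose estimates were above the median of the family. Under median of ratios scaling, with or without the replicate term, the values were 0.0058 for Rps27rt, 0.077 for Rpl7l1, 0.15 for Rpl7a, 0.25 for Rpl29, 0.37 for Rpl22l1, 0.29 for Rpl36al and 0.36 for Rps27l. Under quantile normalization they were 0.23 for Rpl29, -0.071 for Rpl35, -0.15 for Rpl3, -0.18 for Rpl7, -0.33 for Rpl10, -0.045 for Rpl36a, 0.13 for Rps27l, -0.05 for Rps4x and -0.014 for Rplp0. With rescaling over genes outside the family they were 0.044 for Rpl22l1 and 0.032 for Rps27l, and with voom 0.11 for Rpl22l1, 0.022 for Rpl36al and 0.089 for Rps27l. Without both libraries low in short genes they were 0.17 for Rps27rt, 0.25 for Rpl7l1, 0.031 for Rpl7a, 0.29 for Rpl29, -0.022 for Rpl21 and -0.12 for Rpl39, and without replicate 3 they were 0.11 for Rpl7l1 and 1.20 for Rpl29. Without replicate 2 they were 0.14 for Rpl7a, -0.058 for Rpl35, -0.078 for Rpl3, -0.083 for Rpl10, -0.065 for Rpl22, -0.099 for Rpl36a, -0.45 for Rpl39, -0.20 for Rps27, 0.11 for Rps27l, -0.46 for Rps27a and -0.27 for Rpl38. On leaving out single libraries the estimates ranged from -0.91 to 0.13 for Rps27rt, -0.57 to 0.070 for Rpl7l1, -1.08 to 0.88 for Rpl29, -0.056 to 0.52 for Rpl35, -0.15 to 0.78 for Rpl32l, -0.019 to 0.56 for Rpl21, -0.040 to 0.24 for Rpl3, -0.21 to 0.20 for Rpl10, -0.10 to 0.11 for Rpl22l1, -0.0052 to 0.51 for Rpl36a, -0.44 to 0.73 for Rpl39, -0.059 to 1.40 for Rps27, -0.24 to 0.12 for Rps27l, -0.075 to 0.40 for Rpsa, -0.070 to 0.95 for Rps27a and -0.028 to 1.13 for Rpl38. The call of Larp4b as lower held except without replicate 2, when no gene passed. Vim, Rptor, Eif4ebp2 and Ltn1 passed no longer without the filter on low values, when more genes were tested. Vim passed no longer under quantile normalization, Eif4ebp2 under median of ratios scaling, and Prmt3, Rptor and Ltn1 under either.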
